A study of Mus musculus with 32 samples.

Results

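The gastrocnemius muscle and the hippocampus of old mice given no drug were compared on 8 of the 32 bead arrays of the study, 4 of each tissue, taken by their saline labels. Both groups are female C57BL/6J mice of 23 months that were injected with saline into the abdomen for 3 days, perfused with saline and dissected 33 days after the last injection. The other 24 arrays hold both tissues from mice given AICAR, a nucleoside that activates the energy sensor AMPK, at 500 mg/kg/day for 3, 7 or 14 days. The labels do not say which arrays share a mouse or that each array is its own mouse, so the p-values measure the spread between arrays only. Since whole tissue was profiled, more cells of a type and more RNA per cell cannot be told apart.

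The gastrocnemius is a limb muscle built mainly of fast fibres, long cells packed with myosin and actin filaments that a nerve impulse sets in motion through calcium release from the sarcoplasmic reticulum. The hippocampus is the forebrain region of memory, where glutamate-releasing pyramidal and granule neurons and GABA-releasing interneurons sit among astrocytes, oligodendrocytes and microglia. Both tissues are excitable and use much ATP, but they draw on different members of the same gene families for contraction, calcium handling and energy supply.

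Levels below are log2 intensities after quantile normalization of the 8 arrays, and differences are muscle minus hippocampus on that scale, with the standard error (SE) of the limma fit and a Benjamini-Hochberg adjusted p called below 0.05. The 8 arrays detected between 11846 and 12588 of 25697 probes. Correlations between arrays were 0.991 to 0.994 within muscle, 0.987 to 0.993 within hippocampus and 0.540 to 0.558 between the tissues. Of the 13450 probes tested, 11427 were called (85%), 6104 of them higher in muscle (45.4%) and 5323 higher in hippocampus (39.6%). For 80.3% of the probes the arrays of the tissues did not overlap. The median difference over all probes was 0.105, and 0.382 with median scaling in place of quantile normalization, so the sign of a small difference turns on that choice. With 1 probe, the brightest, standing for each gene, 43.9% of 9384 genes were called higher in muscle and 41.6% higher in hippocampus. Of the 16593 genes with a probe, 588 (3.54%) were detected on all 4 muscle arrays and no hippocampal array, 827 (4.98%) the other way, 6525 (39.3%) on all 8 arrays and 5784 (34.9%) on none. A gene that passed the detection filter through 1 tissue alone had to differ. Such genes are given a bound, and list members are counted as called only where all 8 arrays detected them, where 84.7% of all 6525 genes were called, 45.4% higher in muscle and 39.3% higher in hippocampus, with a median difference of 0.092. One hippocampal array, replicate 1, stood far below the others for genes of the choroid plexus. Differences on the 8 arrays that touch those genes are given with and without it.

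**Figure D1:**
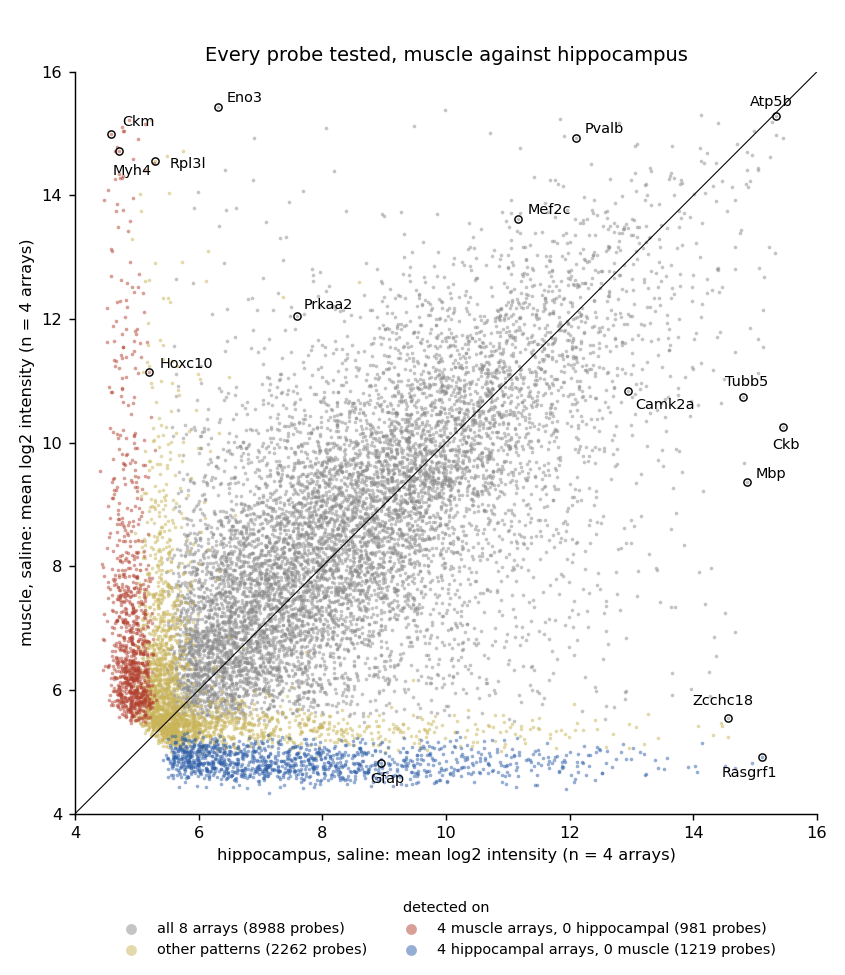
Mean log2 intensity of the 4 muscle arrays (vertical) against that of the 4 hippocampal arrays (horizontal) for the 13450 probes tested, coloured by the arrays that detected the probe, with the line of equal levels. Ckm and Myh4 lie at the top of the left margin, Rasgrf1 at the right end of the lower margin, and Pvalb and Mef2c among the probes bright in both tissues.

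The contractile genes of fast fibres were among the largest differences towards muscle. All 12 with a probe were detected on the 4 muscle arrays, and 9 of them on no hippocampal array, so most of the list can be given only as bounds. Ckm, the creatine kinase that rebuilds ATP at the myofibril, read 15.15, 15.06, 14.91 and 14.88 on the muscle arrays and 4.49, 4.46, 4.57 and 4.81 on the hippocampal arrays, where it was not well above background. The muscle arrays all lay near the top of the scale and none came close to the hippocampal values. For such a gene the fold is a bound, taken as the mean of the bright tissue against, on each array of the other, the higher of the probe's own signal and the lowest signal of any detected probe. Ckm was at least 793-fold higher in muscle.

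Mylpf, the regulatory light chain of fast myosin, read 14.99, 14.80, 15.30 and 15.04 in muscle and 4.79, 4.84, 4.82 and 4.71 in hippocampus. Ttn, which encodes the giant spring protein titin, read 15.12, 14.93, 15.09 and 15.30 against 4.74, 4.66, 4.80 and 4.86. The arrays fell apart by tissue for both genes, with SDs of 0.06 to 0.204 inside a tissue. Mylpf was at least 812-fold and Ttn at least 855-fold higher in muscle. Other bounds of this size belonged to Tnni2 (at least 923-fold), Tnnt3 (818-fold) and Tnnc2 (678-fold), the 3 subunits of fast troponin that make the thin filament respond to calcium, to Actn3 (881-fold), the Z-disc actinin of fast fibres, and to Myh4 (651-fold), the heavy chain of the fastest myosin. Atp2a1, the fast calcium pump, differed by 9.98 (SE 0.14), and 1 hippocampal array detected it.

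Of 13 slow fibre genes with a probe, 8 were detected in muscle alone, and 4 on all 8 arrays, of which 2 were called higher in muscle and 1 in hippocampus. Tnnt1 and Tnnc1, slow troponin T and troponin C, were detected on all 8 arrays and were higher in muscle by 7.87 (SE 0.15) and 7.33 (SE 0.14). Myl2 and Myl3, the slow myosin light chains, were at least 530-fold and at least 479-fold higher. The listed genes that did otherwise are made in many cell types. Atp2a2, named after its values were seen, the slow and housekeeping calcium pump, read 13.84, 13.92, 13.50 and 13.74 in muscle and 13.79, 13.79, 13.79 and 13.71 in hippocampus, a difference of -0.019 (SE 0.10, adjusted p = 0.865) that became 1.05 with median scaling (adjusted p = 6.34e-06). Tpm3, slow tropomyosin, was higher in hippocampus at its brightest probe (-0.92, SE 0.11, adjusted p = 1.4e-05), while its 3 other probes read 4.58, 4.17 and 4.78 higher in muscle.

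Of 27 sarcomere and Z-disc genes, 7 were detected in muscle alone and 12 on all 8 arrays, of which 11 were called higher in muscle and 0 in hippocampus. The other, named after its values were seen, was Tpm1, a tropomyosin whose difference was 0.00 (adjusted p = 0.997), but 0.56 and called with median scaling, where all 12 were higher in muscle. Tcap, the titin cap, differed by 8.97 (SE 0.12), with 3 hippocampal arrays detecting it. Tmod4, which caps thin filaments, differed by 8.97 (SE 0.12), with 1 hippocampal array detecting it. Myom1 of the M-band differed by 8.07 (SE 0.12), Des, the desmin filament, by 7.17 (SE 0.11), and Acta1, skeletal actin, by 7.02 (SE 0.18). Ryr1, the calcium release channel, read 14.29, 14.50, 14.44 and 14.38 in muscle and 6.61, 6.53, 6.41 and 6.14 in hippocampus. All 8 arrays detected it, so the difference of 7.98 (SE 0.11) is measured on both sides, and its 3 other probes gave 8.52, 7.20 and 4.79. Of the 5 coupling genes detected on all 8 arrays, 4 were called higher in muscle, and Fkbp1a, a ryanodine receptor partner found in most cells, was higher in hippocampus (-1.33, SE 0.082).

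Of 24 genes of creatine, glycogen and purine metabolism, 15 were detected on all 8 arrays and all 15 were called higher in muscle, with a median difference of 3.38. Of 27 genes of fuel uptake and fatty acid oxidation, 16 were detected on all 8 arrays and all 16 were called higher in muscle, with a median of 2.90. Eno3, muscle enolase, read 15.48, 15.33, 15.48 and 15.43 in muscle and 6.41, 6.30, 6.48 and 6.03 in hippocampus. This was the largest difference among the 6525 genes detected on all 8 arrays, at 9.12 (SE 0.11, adjusted p = 1.07e-13). Mb, the oxygen carrier myoglobin, was at least 572-fold and Ampd1, AMP deaminase, at least 596-fold higher. Slc2a4, the insulin-responsive glucose transporter, differed by 6.39 (SE 0.095), with 1 hippocampal array detecting it. Cpt1b, which admits fatty acids to mitochondria, differed by 6.83 (SE 0.14) and Perm1, a regulator of muscle mitochondrial genes, by 7.62 (SE 0.10), each detected on 3 hippocampal arrays. Ppargc1a, the coactivator of mitochondrial biogenesis, was far closer, at 9.34, 9.40, 9.30 and 9.29 in muscle and 8.36, 8.60, 8.53 and 8.70 in hippocampus. Its groups did not overlap, and the difference was 0.79 (SE 0.09, adjusted p = 8.85e-06). In the AMPK complex that AICAR acts on, Prkaa2, a catalytic subunit, was higher in muscle by 4.46 (SE 0.084) and Prkab2, a scaffold subunit, by 5.35 (SE 0.12), with 1 hippocampal array detecting Prkab2. Prkag2, a nucleotide-sensing subunit (-1.62, SE 0.11), and Camkk2, an upstream kinase (-1.88, SE 0.099), were higher in hippocampus.

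Of 18 myogenic regulators and satellite cell genes, 7 were detected in muscle alone, 3 on all 8 arrays and 6 on no array. Myf6, a myogenic factor kept on in adult fibres, was at least 72.5-fold and Vgll2, a muscle cofactor, at least 53.9-fold higher in muscle. Of 22 transcription factors that place the hindlimb along the body, 10 (45.5%) were detected in muscle alone and 0 in hippocampus alone. Hoxc10 read 10.97, 11.30, 11.02 and 11.31 in muscle and 5.08, 5.11, 5.30 and 5.30 in hippocampus. None of the hippocampal arrays detected it, and the bound was at least 55-fold. Hoxd8 followed at 43.7-fold, Hoxc9 at 26.2-fold and Hoxd9 at 20.3-fold or more. Of 18 genes of the nerve-muscle contact, 5 were detected in muscle alone and 6 on all 8 arrays, and of those 6, 2 were called higher in muscle and 3 in hippocampus. Chrna1, a subunit of the acetylcholine receptor, was at least 15.9-fold higher and Rapsn, which clusters that receptor, differed by 4.36 (SE 0.12), with 1 hippocampal array detecting it. Ncam1 (-2.87, SE 0.13), Lrp4 (-0.64, SE 0.13) and Dok5 (-1.01, SE 0.20) were those called higher in hippocampus, Lrp4 not with median scaling (-0.25, adjusted p = 0.097).

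**Figure D2:**
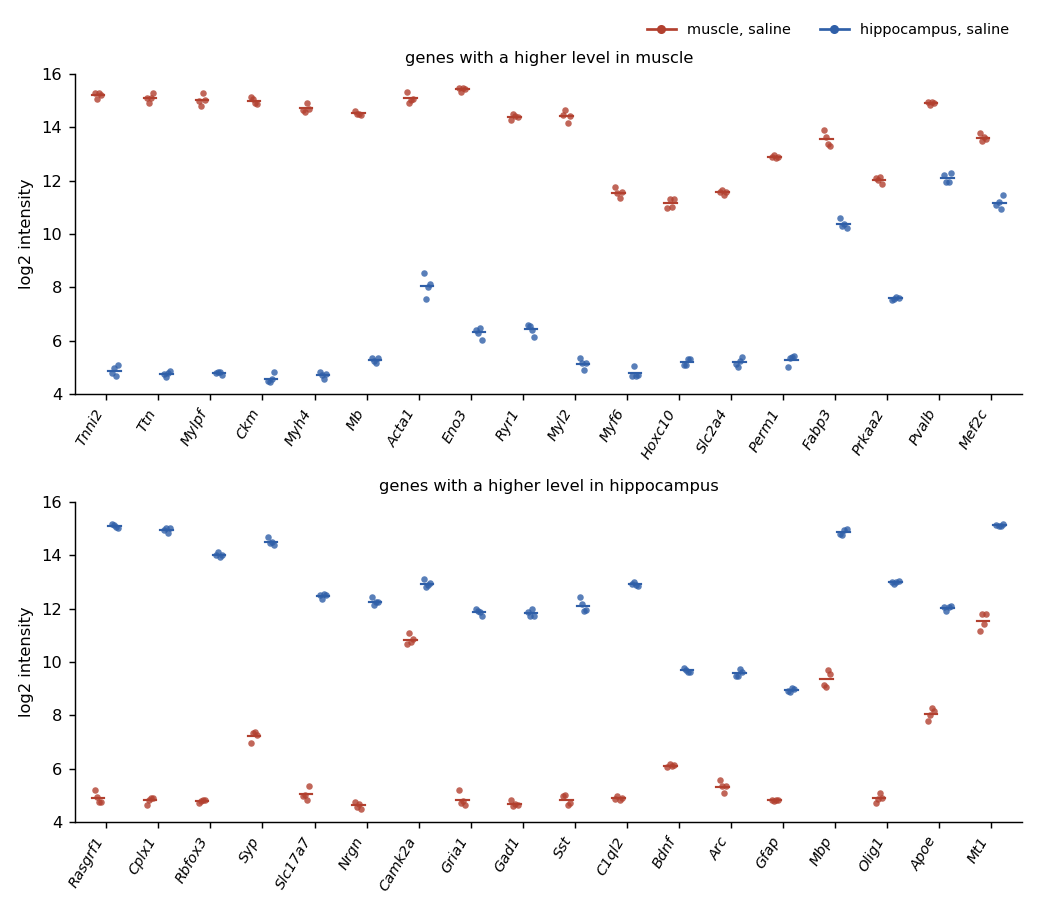
Log2 intensity on each of the 8 arrays (points) with the mean of each tissue (bar), for genes higher in muscle (top) and in hippocampus (bottom). Pvalb, Mef2c, Camk2a and Mt1 are bright in both tissues, whereas most other genes shown sit near 5 in 1 of them.

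Rasgrf1, an exchange factor that turns on Ras after calcium entry, read 15.17, 15.14, 15.07 and 15.04 in hippocampus and 5.21, 4.94, 4.75 and 4.77 in muscle. Cplx1, complexin, which holds synaptic vesicles ready for release, read 14.95, 15.01, 14.84 and 15.01 against 4.64, 4.83, 4.89 and 4.92. The hippocampal arrays lay within 0.2 of each other for both genes and no muscle array detected either. Rasgrf1 was at least 846-fold and Cplx1 at least 761-fold higher in hippocampus. Next by bound came Cpne6 (at least 558-fold), a calcium-binding copine, Ttr (434-fold), the thyroid hormone carrier of choroid plexus described below, Rasgrp1 (409-fold), another Ras activator, and Rbfox3 (398-fold), the splicing factor known as the neuronal nuclear antigen NeuN. Sult4a1, a brain sulfotransferase (368-fold), Bex2 (293-fold) and Pacsin1, which works in vesicle retrieval (281-fold), followed.

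Of 27 synaptic vesicle genes with a probe, 12 (44.4%) were detected in hippocampus alone and 9 on all 8 arrays, of which 8 were called higher in hippocampus and 1 in muscle. Syp, synaptophysin of the vesicle membrane, read 14.67, 14.45, 14.52 and 14.38 in hippocampus and 6.97, 7.35, 7.36 and 7.27 in muscle, a difference of -7.27 (SE 0.11). Sh3gl2, endophilin, differed by -9.05 (SE 0.078) with 3 muscle arrays detecting it, and Atp6v1g2, a proton pump subunit, by -7.97 (SE 0.083) with all 4. The exception was Syngr1, whose brightest probe was higher in muscle by 2.32 (SE 0.10) while 2 of its 3 other probes were higher in hippocampus (-3.54 and -2.99) and 1 in muscle (3.35). The probe for Snap25, a core protein of vesicle fusion, was not well above background on any of the 8 arrays, so its tissue pattern was not measured.

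None of the 26 glutamate, GABA and glycine receptor genes was detected on all 8 arrays, 10 were detected in hippocampus alone, 8 on some arrays and 8 on no array, so no member can be compared on measured levels in both tissues. Gria1, an AMPA receptor subunit, was at least 89.8-fold, Gabrb1, a GABA-A subunit, at least 21.1-fold and Gabbr1, of the GABA-B receptor, at least 13.6-fold higher. Of 25 neuronal ion channel genes, 10 were detected in hippocampus alone and 5 on all 8 arrays, and of those 5, 2 were called higher in each tissue. Kcnk1, a potassium leak channel, was higher in hippocampus (-5.83, SE 0.12), with 2 muscle arrays detecting it. Cacna2d1, an accessory subunit of calcium channels that serves muscle as well (2.38, SE 0.17), and Kcnc1, a fast potassium channel (1.06, SE 0.11), were higher in muscle.

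Genes that mark the cell layers of the hippocampus were present. C1ql2, of dentate granule cells, averaged 12.9 ± 0.07 (SD, n = 4) in hippocampus, and Fibcd1, of field CA1, averaged 12.8 ± 0.188 (SD, n = 4). Both were undetected in muscle and were at least 184-fold and at least 166-fold higher in hippocampus. Markers of transmitter types lay in hippocampus as well, with Slc17a7, the vesicular glutamate transporter (12.52, 12.37, 12.55 and 12.52 in hippocampus), at least 138-fold, Gad1, which makes GABA, at least 87-fold, Slc32a1, the vesicular GABA transporter, at least 107-fold and the interneuron peptide Sst at least 106-fold higher. Nrgn, neurogranin of the postsynapse, was at least 118-fold higher. Of 21 nerve growth and early response genes with a probe, 11 were detected on all 8 arrays, with a median difference of -0.61. Of those 11, 8 were called higher in hippocampus and 2 in muscle, but 6 and 2 with median scaling. The shares over all genes detected on all 8 arrays were 39.3% and 45.4%. From this list, Bdnf read 9.76, 9.72, 9.61 and 9.63 in hippocampus and 6.08, 6.18, 6.09 and 6.12 in muscle. Both tissues held their 4 arrays within 0.2, and the difference was -3.56 (SE 0.076, adjusted p = 6.74e-12). Arc, an early response gene of synapses, differed by -4.24 (SE 0.11), with 1 muscle array detecting it.

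The other cells of the brain showed on their marker lists. Of 9 oligodendrocyte markers with a probe, 3 were detected in hippocampus alone and 3 on all 8 arrays, and of 9 astrocyte markers, 3 and 4. Those detected on all 8 arrays were all called higher in hippocampus, 1 astrocyte marker not with median scaling. Mbp, a protein of compact myelin, was detected on all 8 arrays, at 14.78, 14.76, 14.93 and 14.97 in hippocampus and 9.14, 9.08, 9.72 and 9.54 in muscle. The muscle level was well above background, and the difference was -5.49 (SE 0.14). Olig1, of the oligodendrocyte lineage, was at least 196-fold, Aldoc, the astrocyte aldolase, at least 228-fold and Gfap, the astrocyte filament protein, at least 11.8-fold higher. Olig1 stands on a separate list of oligodendrocyte precursor markers, 5 with a probe, of which 2 were detected in hippocampus alone. The 2 precursor markers detected on all 8 arrays were both called higher in muscle, by less than 2-fold, with a median difference of 0.55. With the authors' scores, described below, 1 of the 2 was called. Of 12 microglia and macrophage markers, 6 were detected on all 8 arrays, and all 6 were called higher in hippocampus (median difference -1.54). Of the rest, Cx3cr1 (-3.57, SE 0.18, detected on 2 muscle arrays) and Trem2 (-2.86, SE 0.12, on 1) were higher in hippocampus. Cd163 (2.70, SE 0.16, on 1 hippocampal array) and Mrc1 (2.68, SE 0.35, on 2), markers of tissue macrophages, were higher in muscle.

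Promoter sequences are shown for 3 genes of each tissue from the top of the list of bounds, to set the largest differences beside the DNA in front of them. They come from RefSeq's promoter table, and Tnni2, Actn3, Tnnt3, Cpne6 and Ttr, which stand in the same range of bounds, are named only. Each runs 5′ to 3′ over the 250 bases before the annotated start, on the gene's own strand, from build GRCm38.p6. Capitals mark matches, on either strand, to CAGCTG (an E-box read by myogenic and other factors), the MEF2 site, the CArG box, the TATA box TATAAA, the GC box GGGCGG (here also as its reverse complement) and the cyclic AMP element TGACGTCA, and no match overlaps another.
Ttn, muscle, chr2:76982548-76982797, minus strand: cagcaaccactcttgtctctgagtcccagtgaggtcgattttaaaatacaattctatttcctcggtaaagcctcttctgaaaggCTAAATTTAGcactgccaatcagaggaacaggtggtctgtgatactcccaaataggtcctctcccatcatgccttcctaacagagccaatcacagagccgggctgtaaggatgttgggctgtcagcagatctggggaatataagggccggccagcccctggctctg
Mylpf, muscle, chr7:127211358-127211607, plus strand: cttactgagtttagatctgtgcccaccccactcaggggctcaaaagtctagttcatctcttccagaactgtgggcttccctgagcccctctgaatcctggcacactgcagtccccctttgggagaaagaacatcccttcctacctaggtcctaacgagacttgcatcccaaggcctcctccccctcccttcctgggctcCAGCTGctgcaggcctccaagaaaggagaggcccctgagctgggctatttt
Ckm, muscle, chr7:19410844-19411093, plus strand: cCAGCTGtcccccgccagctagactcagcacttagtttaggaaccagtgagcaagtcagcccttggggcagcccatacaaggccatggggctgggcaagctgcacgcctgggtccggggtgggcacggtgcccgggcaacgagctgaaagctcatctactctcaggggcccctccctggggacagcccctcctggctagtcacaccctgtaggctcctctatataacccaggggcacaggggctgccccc
Rasgrf1, hippocampus, chr9:89909525-89909774, plus strand: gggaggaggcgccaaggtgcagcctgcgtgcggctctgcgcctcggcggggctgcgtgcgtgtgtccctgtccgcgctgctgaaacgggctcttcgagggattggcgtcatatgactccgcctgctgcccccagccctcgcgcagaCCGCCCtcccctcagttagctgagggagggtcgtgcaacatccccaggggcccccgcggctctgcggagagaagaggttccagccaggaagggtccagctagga
Cplx1, hippocampus, chr5:108550028-108550277, minus strand: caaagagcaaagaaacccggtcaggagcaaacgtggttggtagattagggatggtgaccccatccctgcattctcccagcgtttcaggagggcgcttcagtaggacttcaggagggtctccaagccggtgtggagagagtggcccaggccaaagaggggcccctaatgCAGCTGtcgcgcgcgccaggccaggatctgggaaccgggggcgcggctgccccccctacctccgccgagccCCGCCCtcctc
Rasgrp1, hippocampus, chr2:117342878-117343127, minus strand: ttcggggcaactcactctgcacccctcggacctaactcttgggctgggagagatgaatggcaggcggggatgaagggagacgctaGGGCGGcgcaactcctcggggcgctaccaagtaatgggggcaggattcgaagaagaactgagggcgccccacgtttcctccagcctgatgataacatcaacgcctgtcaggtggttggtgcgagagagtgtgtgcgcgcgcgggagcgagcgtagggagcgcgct
The MEF2 site of Ttn lay 166 to 157 bases and the E-box of Mylpf 51 to 46 bases before the start, and that of Ckm at 249 to 244. All 3 hippocampal promoters held GGGCGG or its complement, which none of the 3 muscle promoters did. Over whole groups of genes, 46.8% of 451 promoters of genes detected in muscle alone held GGGCGG, against 53.1% of 627 in hippocampus alone, 61.7% of 5372 on all 8 arrays and 32.9% of all 27025. The MEF2 site stood in 5.32% of the muscle-only promoters, 1.44% of the hippocampus-only, 1.53% of those detected on all 8 arrays and 3.01% of all, and CAGCTG in 18.6%, 12.8%, 10.6% and 12.8%. These shares describe letters in a window, were not tested, and say nothing on whether a factor binds there.

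Many gene families kept a form for each tissue. Of 35 pairs of a muscle form with a brain or general form, 29 had both on the array, and in 22 the muscle form was called higher in muscle and the other higher in hippocampus. The 22 include forms detected in 1 tissue alone, among them Ckmt2 and Ckmt1, which had to differ. Over all 9384 genes tested, 43.9% were called higher in muscle and 41.6% higher in hippocampus. Of those 22, Acta1 with Actb and Rcan1 with Rcan2 rested on the scaling, since with median scaling in place of quantile normalization Actb turned from -0.74 to 0.50 and Rcan2 from -0.50 to 0.05. Each form was read at its brightest probe, and some other probes of Actb and of Camk2a, given below, were higher in muscle. Ckmt2, mitochondrial creatine kinase of muscle, was at least 501-fold higher in muscle, and Ckmt1, its counterpart elsewhere, at least 263-fold higher in hippocampus. Ckb, the brain creatine kinase, was detected on all 8 arrays, at 15.43, 15.43, 15.48 and 15.48 in hippocampus and 10.19, 10.15, 10.48 and 10.17 in muscle. The hippocampal arrays lay at the top of the scale, and the difference was -5.21 (SE 0.092).

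Along glycolysis, hexokinase Hk2 was higher in muscle by 4.68 (SE 0.077) and Hk1 at least 5.50-fold higher in hippocampus. Phosphofructokinase Pfkm differed by 2.38 (SE 0.10) and Pfkp by -5.00 (SE 0.095). Phosphoglycerate mutase Pgam2 differed by 6.38 (SE 0.17) and Pgam1 by -2.90 (SE 0.11). Of the enolases, Eno3 is given above and Eno2 differed by -8.98 (SE 0.098), with 2 muscle arrays detecting it. In glycogen breakdown Pygm was at least 187-fold higher in muscle and Pygb differed by -3.27 (SE 0.10). Rpl3l and Rpl3, forms of 1 ribosomal protein, differed by 9.27 (SE 0.097, 2 hippocampal arrays detecting Rpl3l) and -2.68 (SE 0.083).

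The subunits of cytochrome c oxidase showed both patterns. Cox6a2 differed by 5.64 (SE 0.10) and Cox6a1 by -3.51 (SE 0.091). Cox7a1 was higher in muscle by 6.43 (SE 0.13), but its partner Cox7a2 was higher in muscle too, by 0.70 (SE 0.088). Cox8a differed by -2.81 (SE 0.079). Cox8b read 14.38, 14.43, 14.37 and 14.37 in muscle but 5.83, 8.33, 9.38 and 9.21 in hippocampus. The muscle arrays were nearly equal, while hippocampal replicate 1 lay far below the other 3. The difference was 6.20 (SE 0.63, adjusted p = 3.28e-06) with that array and 5.46 without it.

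Some genes listed as brain forms went towards muscle. Mef2c, a transcription factor used by both muscle and neurons, read 13.78, 13.49, 13.62 and 13.55 in muscle and 11.11, 11.19, 10.93 and 11.45 in hippocampus. It was bright in both, and higher in muscle by 2.44 (SE 0.12), with its other probes at 7.44 and 3.32. Mbnl2, a splicing factor, was higher in muscle by 0.51 (SE 0.084). Pvalb, the calcium buffer parvalbumin of fast fibres and of a class of interneurons, read 14.97, 14.84, 14.95 and 14.93 in muscle and 12.21, 11.96, 11.94 and 12.28 in hippocampus. Its arrays did not overlap and the difference was 2.82 (SE 0.098). Camk2a, the synaptic calcium/calmodulin kinase, differed by -2.10 (SE 0.11) at its brightest probe, and its other probes disagreed at 2.98 and -2.84. That brightest probe read 10.69 to 11.07 in muscle, well above background.

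**Figure D3:**
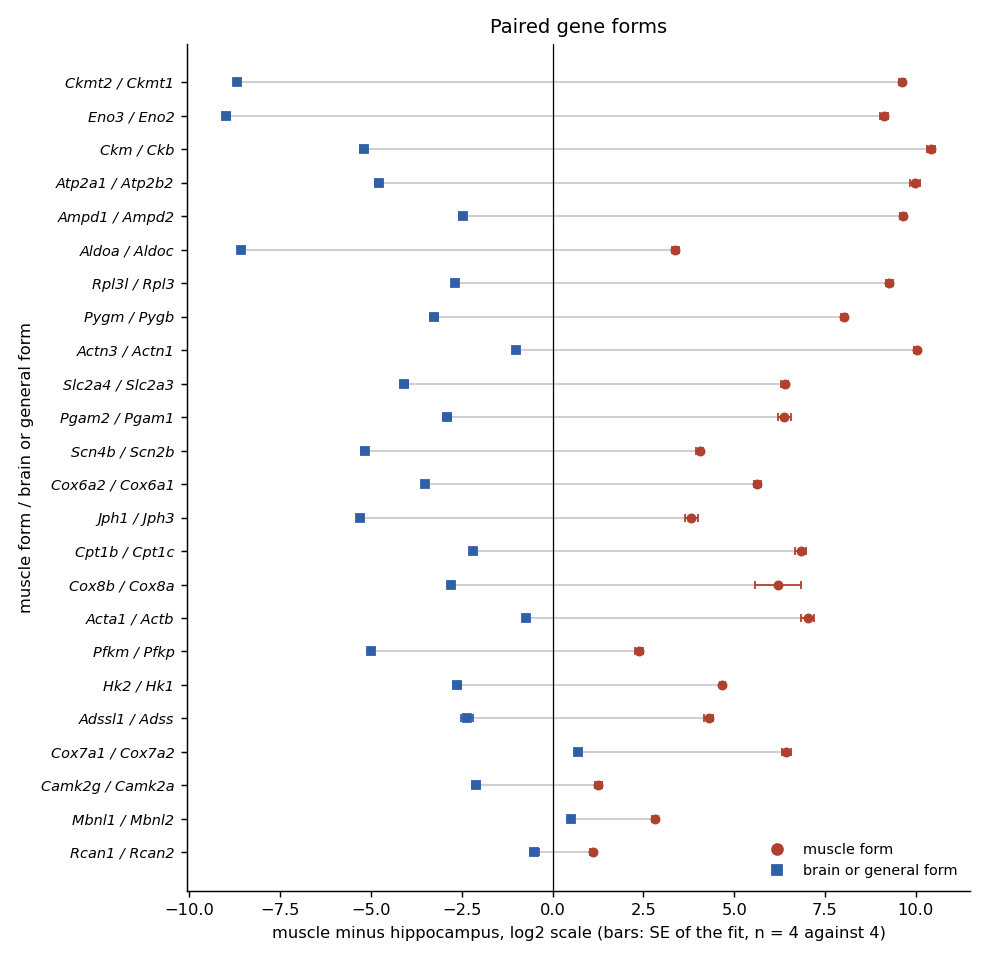
Muscle minus hippocampus on the log2 scale for 24 pairs in which both forms were tested, the muscle form as a circle and the brain or general form as a square, with the SE of the fit. In 22 pairs the line between the forms crosses 0, and the pairs that stay on the muscle side are Cox7a1 with Cox7a2 and Mbnl1 with Mbnl2.

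Machinery that both tissues need was mostly detected in both. Among 34 complex I genes, 30 were detected on all 8 arrays (88.2%), and 28 of these were called higher in muscle and 0 in hippocampus, with a median difference of 1.25. Ndufb9, an accessory subunit, averaged 10.7 ± 0.246 (SD, n = 4) in muscle and 6.78 ± 0.117 (SD, n = 4) in hippocampus, a difference of 3.88 (SE 0.13). Of 37 genes of complexes II to V detected on all 8 arrays, 30 were higher in muscle and 3 in hippocampus. These were Cox6a1, Cox8a and, named after its values were seen, Atp5o (-0.37, adjusted p = 0.0243), whose call was lost without hippocampal replicate 1 (adjusted p = 0.0679), without muscle replicate 3 or 4 (0.0719 and 0.057) and with median scaling (0.06, adjusted p = 0.695). Of 19 genes of the TCA cycle detected on all 8 arrays, 16 were higher in muscle, among them Mdh2, mitochondrial malate dehydrogenase (3.12, SE 0.15), and 3 in hippocampus. Idh3b, a subunit of isocitrate dehydrogenase, went the other way at 12.21, 11.89, 11.96 and 12.08 in hippocampus and 9.10, 8.49, 9.16 and 9.20 in muscle. No array crossed over, and the difference was -3.04 (SE 0.16). With the other scalings tried, 29 or 30 of the 30 complex I genes were higher in muscle and 0 in hippocampus, while the median of all genes detected on all 8 arrays ran from -0.075 with cyclic loess to 0.49 with median scaling.

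For ribosomes and proteasomes the size of the excess in muscle rested on the scaling. Of 40 cytosolic ribosomal protein genes detected on all 8 arrays, 21 were higher in muscle and 10 in hippocampus, but 36 and 2 with median scaling and 17 and 16 with cyclic loess. Of 29 such proteasome genes, 21 were higher in muscle and 5 in hippocampus, but 29 and 0 with median scaling and 19 and 6 with cyclic loess. Psme4, an activator of the proteasome, differed by 3.43 (SE 0.072) and Psmd11, a lid subunit, by 3.32 (SE 0.13). Among 18 chaperones detected on all 8 arrays, 11 were higher in muscle and 6 in hippocampus, but 13 and 5 with median scaling and 11 and 7 with cyclic loess. Of all genes detected on all 8 arrays, 45.4% were called higher in muscle and 39.3% in hippocampus. Of the small heat shock proteins, Hspb6 was higher in muscle by 5.40 (SE 0.17) and Hspb7 at least 58.6-fold. Dnajc6, auxilin of clathrin coats, was at least 225-fold higher in hippocampus.

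The genes closest between the tissues at the bright end were Atp5b, a subunit of ATP synthase (15.28 and 15.33 on average), Rplp1 (15.18 and 15.27), Atp5g3 (15.05 and 14.98) and Rps20 (14.83 and 14.70). Their equality rested on quantile normalization, which gives the brightest probes of each array the same values, since with median scaling Atp5b was higher in muscle by 0.79, Rplp1 by 0.76, Atp5g3 by 1.21 and Rps20 by 1.39. Genes used as references for other assays were called about as often as all genes (84.7%). Of 11 detected on all 8 arrays, 4 were called higher in muscle and 6 in hippocampus, but 6 and 4 with median scaling and 4 and 5 without hippocampal replicate 1. Those higher in hippocampus included Tubb5, a tubulin (-4.07, SE 0.075), Ywhaz, a 14-3-3 protein (-2.83, SE 0.091), and Hprt, of purine salvage (-1.68, SE 0.079). The probes for Actb, cytoskeletal actin, disagreed, at -0.74 for the brightest and 2.52, -3.04, 2.67 and -1.16 for the others. B2m, named after its values were seen, differed by 0.22 (SE 0.14, adjusted p = 0.155), and was called without hippocampal replicate 3 (0.36, adjusted p = 0.011) and with median scaling (0.97, adjusted p = 5.57e-05).

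Of 13 genes of the body clock detected on all 8 arrays, 10 were called higher in muscle and 2 in hippocampus, a share of calls near the 84.7% of all such genes, and the labels give no hour of dissection. Nr1d1 and Nr1d2, the REV-ERB repressors, were higher in muscle by 2.70 (SE 0.14) and 2.86 (SE 0.11), and Rora, an activator acting on the same DNA sites, by 3.25 (SE 0.097). Mt1, a metallothionein that binds zinc and copper and is listed among genes of muscle wasting, read 15.14, 15.09, 15.12 and 15.17 in hippocampus and 11.17, 11.79, 11.42 and 11.81 in muscle. The hippocampal arrays were far tighter than those of muscle, and the difference was -3.58 (SE 0.14). From the same list the ubiquitin ligases Fbxo32 (5.63, SE 0.12) and Trim63 (4.96, SE 0.13, detected on 2 hippocampal arrays) were higher in muscle. Apoe, the lipid carrier made by astrocytes, was higher in hippocampus (-3.97, SE 0.11). Of 12 genes of cholesterol and sphingolipid synthesis detected on all 8 arrays, 10 were called higher in hippocampus and 1 in muscle. The shares of all such genes were 39.3% and 45.4%.

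**Figure D4:**
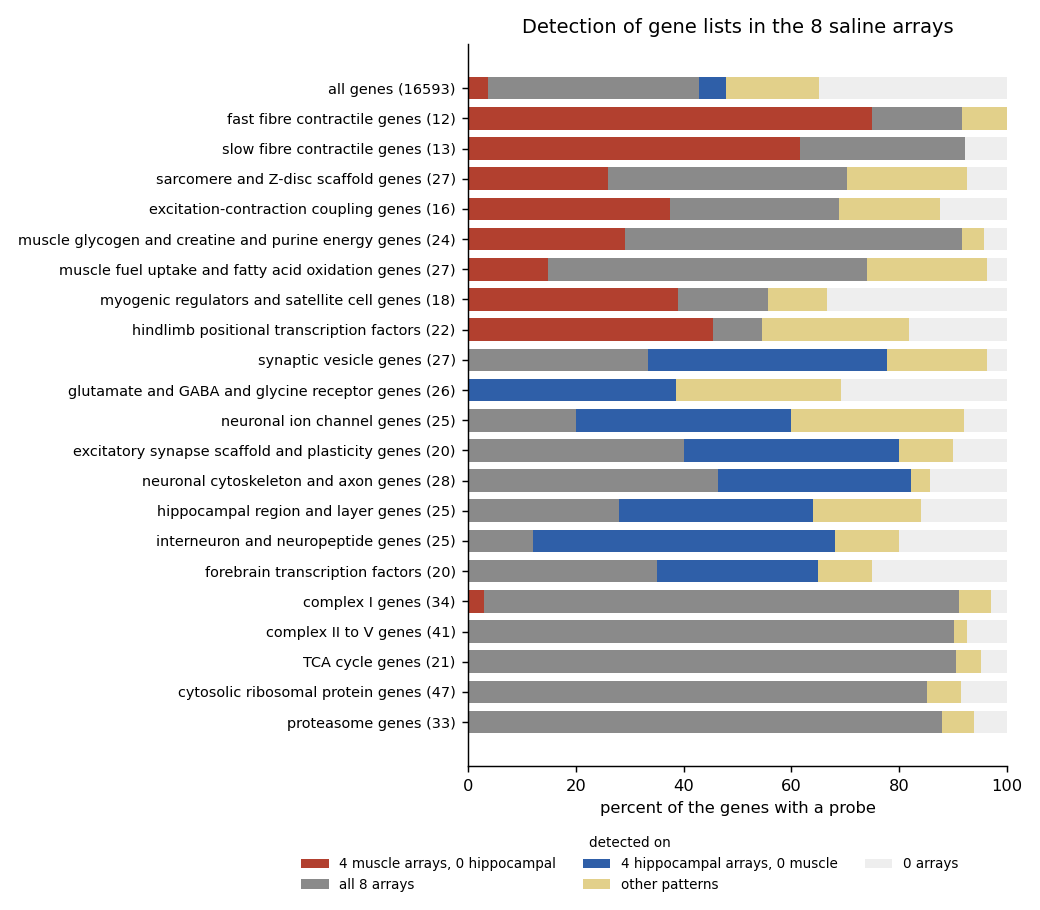
Share of the genes of each list by the arrays that detected them, with the number of genes that have a probe in brackets and all 16593 genes in the top bar. Fast fibre genes are 75% muscle-only and receptor genes 38.5% hippocampus-only, whereas complex I, at 88.2%, and the cytosolic ribosome, at 85.1%, are mostly detected on all 8 arrays.

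Within hippocampus the arrays differed most in genes of the choroid plexus, the epithelium that makes cerebrospinal fluid. Ttr, transthyretin, read 11.33, 14.95, 15.15 and 15.15, and Clic6, a chloride channel protein, 7.25, 10.75, 11.52 and 11.39. Kl, klotho, read 7.09, 8.90, 9.58 and 9.38. For each gene replicate 1 was the low array, and all 4 arrays detected it. Over the 9 choroid plexus and ependyma markers with a probe, all 9 detected on at least 1 hippocampal array, the mean level was 6.32, 8.60, 9.30 and 9.24. Ttr was at least 434-fold higher in hippocampus, and its difference was -9.00 (SE 0.73) with replicate 1 and -10.01 without it. Aqp1, a water channel of choroid epithelium and of vessels, read 5.17, 9.05, 10.11 and 10.04 in hippocampus, where replicate 1 did not detect it, and 12.57 to 12.64 in muscle. Its difference was 4.01 (SE 0.89) and 2.89 without replicate 1. Cox8b, given above, was low on the same array. Over the 16 hippocampal arrays of the series, normalized with all 32, the 4 lowest levels of Ttr and the 4 lowest of Cox8b stood on the same arrays, saline replicate 1, AICAR 3 days replicates 2 and 3 and AICAR 7 days replicate 4. Cox8b read 5.92, 6.30, 5.35 and 6.59 there and from 8.40 to 10.35 on the other 12. The part of choroid plexus in the Cox8b level of hippocampus was not tested.

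A further set moved otherwise. Slc6a13, a GABA transporter of the meninges, read 8.36, 10.04, 9.60 and 7.78 and Ptgds, a prostaglandin synthase of meninges and oligodendrocytes, 10.77, 11.26, 11.66 and 10.11. Replicates 2 and 3 were the high arrays for both, unlike for the choroid genes. Slc17a7 and Syp, given above, had SDs of 0.084 and 0.122 over the same 4 arrays.

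Within muscle, genes of blood, fat and slow fibres varied between the arrays. Hba-a1, alpha globin, read 9.49, 8.35, 11.89 and 9.07 in muscle and 11.75, 12.52, 12.57 and 12.32 in hippocampus. Muscle replicate 3 overlapped the hippocampal arrays, and the difference was -2.59 (SE 0.61, adjusted p = 0.00211) and -3.31 without that array. Of 4 red blood cell markers with a probe, 2 were tested, Hba-a1 and 1 that was not called. Adipoq, the fat hormone adiponectin, read 9.23, 8.66, 10.08 and 9.70, and Lep, leptin, 8.79, 7.80, 9.33 and 8.54 in muscle. Replicate 3 was the highest and replicate 2 the lowest for all 3 genes. Myl2 read 14.45, 14.64, 14.15 and 14.43 and Myl3 14.35, 14.47, 13.88 and 14.39, so replicate 3 was the lowest and replicate 2 the highest in slow fibre genes. Adipoq was at least 16.6-fold higher in muscle and Car3, abundant in fat and in slow fibres, at least 333-fold, and 4 of 8 adipocyte markers with a probe were detected on no array. Of the satellite cell markers, Pax7, Myf5 and Calcr, named after their values were seen, were detected on no array, and Chodl, which is also a gene of muscle and nerve, was at least 8.76-fold higher in muscle.

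**Figure D5:**
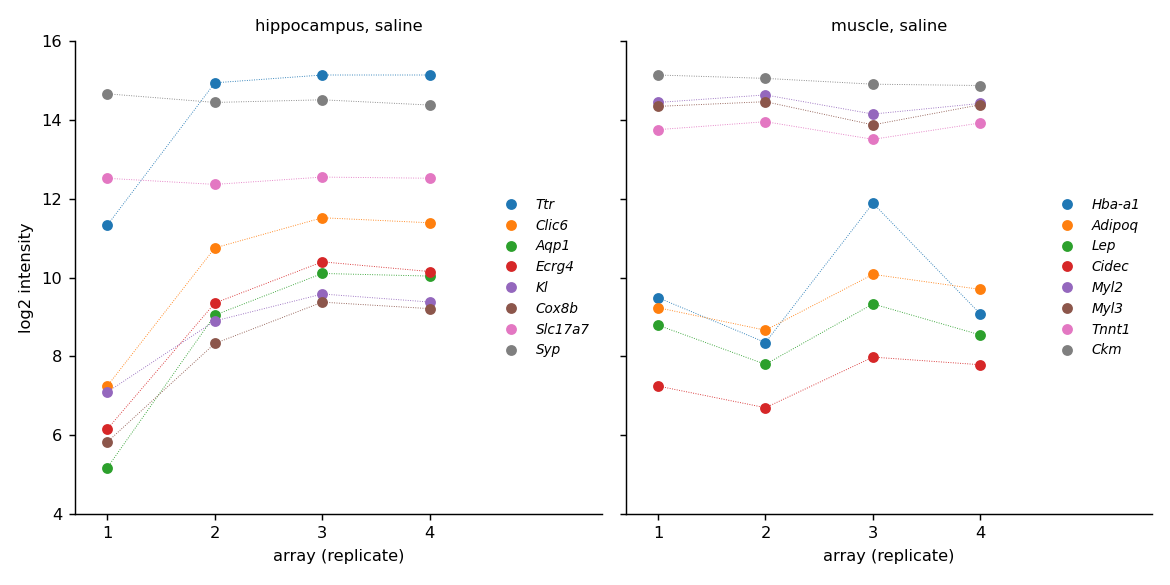
Log2 intensity of single genes on the 4 arrays of hippocampus (left) and of muscle (right), with dotted lines that only link the values of a gene, since replicates have no order. Ttr, Clic6, Aqp1, Ecrg4, Kl and Cox8b are low on hippocampal replicate 1 while Slc17a7 and Syp are level, and Hba-a1 and the fat genes are high on muscle replicate 3.

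The tissue difference was measured again in the AICAR groups, which share no array with the saline groups but were normalized with them. In a fit of all 32 arrays over 15532 probes, 12442 (80.1%) were called in saline, 12449 (80.2%) after 3 days of AICAR, 12450 (80.2%) after 7 days and 12590 (81.1%) after 14 days. Across probes, which share the platform and the normalization, the differences correlated with those in saline at 0.994, 0.977 and 0.977. Eno3 differed by 9.07 in saline and by 9.16, 9.40 and 9.34 in the AICAR groups by duration, and Mef2c by 2.42, 2.44, 2.62 and 2.89. The range over the groups was under 0.5 for both. Idh2, mitochondrial isocitrate dehydrogenase, differed by 2.44 in saline, 2.48 after 3 days, 3.93 after 7 days and 3.93 after 14 days (SE 0.16). Cox8b differed by 6.13, 6.91, 5.43 and 4.74 (SE 0.71). The hippocampal arrays low in Cox8b, given above, stood in saline and after 3 and 7 days but not after 14 days. These values include them, and the fit of 32 arrays was not run without them. Whether the tissue difference of a gene differs between treatments was not tested.

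Probes of 1 gene mostly went the same way. For 2425 genes with at least 2 probes tested, the differences of the 2 brightest correlated at 0.859 across genes, and of 1818 pairs with both called, 1620 (89.1%) had the same direction. Of 892 pairs with both probes at least 2-fold apart, 11 were opposite. The widest was Ptpre, a protein tyrosine phosphatase, with 1 probe at 3.94 and the other at -3.39, and Dnajb6, a chaperone partner also linked to muscle disease in humans, had probes at -2.45 and 2.60. Only the 2 brightest probes of a gene entered, so Syngr1, Camk2a and Actb, whose probes disagreed above, are not among the 11. A gene with 1 probe has no such check here.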

How the data were processed

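Bead intensities, not normalized between arrays, were deposited for 32 MouseRef-8 arrays as probe averages with a detection p-value each, exported from BeadStudio 1.6.0 per the submitters' processing notes. The authors' series table holds, as a score, each probe's log2 intensity minus its mean and divided by its SD over the 32 arrays, which was found by comparison with the deposited intensities (largest deviation 5e-10). The saline arrays, 4 per tissue, were background-corrected from the detection p-values (nec, offset 16), quantile-normalized together and tested with limma 3.58.1 in R 4.3.3, two-sided, with Benjamini-Hochberg adjustment over the 13450 of 25697 probes detected (p below 0.05) on at least 4 of 8 arrays. Of the probes, 23978 have 1 gene symbol and 1719 none, giving 16593 genes, each read at its brightest probe. Named genes were the largest differences and bounds, up to 4 called members of each of 51 lists, the pairs, a panel, the most variable genes of each tissue, the closest bright genes and list members that moved against their list. The members, lists and pairs were chosen with earlier results of these data known. Every p-value in the text is limma's adjusted p. On simulated data of 13450 probes, 100 were changed 1.5-fold and 100 changed 2-fold, and 60% and 87% of these were called. There were 13 calls among unchanged probes. In the real comparison 85% of the probes were called, so these rates do not carry over to it. The 32-array fit used 8 group means. The number of arrays limits the precision. Figures were drawn with matplotlib 3.10.9. Alternatives in scaling, background, filter, arrays and test are given in the closing section.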

Additional observations from a re-analysis of the deposited data

Results flagged for a closer look

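Over the 161 genes examined, 239 groups of 4 arrays could be examined for a single array far from the other 3, and 14 (5.86%) held one, where chance gives about 1 in 20. In hippocampus, replicate 1 was the low array for Ttr at 11.33 (the others from 14.95 to 15.15), for Cox7a1 at 7.09 and for Tpm3 at 8.69. Replicate 2 of hippocampus was low for Camkk2 at 8.03 and for Slc17a7 at 12.37, and replicate 4 was high for Tnnc1 at 6.85 and low for Atp2a2 at 13.71. In muscle, replicate 2 was low for Tnnc2 at 14.61, for Idh3b at 8.49 and for Car3 at 13.39, and high for Atp2a1 at 15.37 and for B2m at 12.36. Replicate 3 of muscle was high for Ckb at 10.48, and replicate 4 was low for Cox7a2 at 8.54. Cox8b, with hippocampal values of 5.83, 8.33, 9.38 and 9.21, did not pass the limit for 1 far array.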

How the results depend on the processing

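The 11427 calls became 7616 among probes detected on all 8 arrays, with 3406 higher in hippocampus and 4042 called at 2-fold or more, since fewer probes were tested. Against a minimum difference of 1 (treat) there were 5546 calls, 2850 in muscle and 2696 in hippocampus, and without background correction 4247 probes were called at 2-fold or more, against 6853. Leaving out 1 array in turn gave 11206 to 11315 calls. The genes that changed sign with the scaling were Actb, to 0.503 (median scaling) and 0.385 (no normalization between arrays), Rcan2, to 0.05, and Atp5o, to 0.061 (median scaling), and, with median scaling and with none, Atp5b, to 0.793 and 0.676, Rplp1, to 0.763 and 0.646, Atp2a2, to 1.055 and 0.938, and Tpm1, to 0.559 and 0.442. The muscle share of calls ran from 48.9% with cyclic loess to 61.2% with median scaling, against 53.4%. Deviations of same-numbered arrays of the tissues correlated at -0.063 to 0.025, which cannot show whether such arrays share a mouse. With the number as a replicate block 11350 probes were called. The counts of lists under other scalings and without hippocampal replicate 1, and the runs for Atp2a2, Tpm1, Atp5o and B2m, were chosen after seeing the data. Dim probes limit detection: a gene on no array has no measured tissue pattern.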

Other observations

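Support tissue differed between the tissues as well. Of 27 collagen and matrix genes, 3 were detected in muscle alone and 5 in hippocampus alone. Of the 10 detected on all 8 arrays, 9 were called higher in muscle, against 45.4% of all such genes, and 0 in hippocampus. Dcn, the collagen-binding proteoglycan decorin, was higher in muscle by 2.52 (SE 0.12), and Col1a1, fibrillar collagen, at least 11.9-fold. The members detected in hippocampus alone included the perineuronal and brain matrix genes Ncan (at least 19.6-fold), Bcan (at least 22.9-fold), Hapln4 (at least 23.8-fold) and Cspg5 (at least 33-fold). All 7 endothelial markers detected on all 8 arrays were higher in muscle, among them Pecam1 (2.09, SE 0.15) and Tek (2.12, SE 0.11). Slco1c1, a thyroid hormone carrier of brain vessels, was at least 12.2-fold higher in hippocampus. Mast cell proteases stood in muscle alone, with Mcpt4 at least 5.18-fold and Cpa3 at least 4.98-fold higher.

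Genes linked to ageing of tissues lay mostly towards muscle. Of 10 detected on all 8 arrays, 7 were called higher in muscle and 1 in hippocampus, against 45.4% and 39.3% of all such genes. Cdkn1a, the cell cycle inhibitor p21, was higher in muscle by 2.22 (SE 0.14) and its other probes gave 2.32 and 2.41. Igfbp5 and Igfbp6, which bind insulin-like growth factors, were higher in muscle by 2.09 (SE 0.11) and 1.99 (SE 0.17), while C4b, complement component C4, was higher in hippocampus (-1.72, SE 0.15). All animals were of the same age, so these are differences between tissues and not with age.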
